A study of Mus musculus with 7 samples.

Results

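The genes described here are known transcriptional targets of hypoxia-inducible factor 1 (HIF-1) in glycolysis and the hypoxia response. They were taken from a list of 35 targets by symbol, with Ero1l and Ero1a counted as 1 gene, and 34 of the 14889 genes in the deposited count table carried a listed symbol. Car9 was not analysed here. Of the 34, 14 encode glycolytic enzymes, lactate dehydrogenase A included, and 20 have other roles. Expression was measured by RNA sequencing of 7 liver samples from C57BL/6 mice of genotype ApoE-/-, aged 4 months and fed Western diet for 3 months. Saline was given for 4 of the samples and PX-478, at a dose of 40 mg/kg, for 3, both as intraperitoneal injections that the labels describe as bi-weekly. All mice lacked apolipoprotein E and all ate the diet, so no group shows these genes in a normal liver. PX-478 is a small molecule known to lower HIF-1α, and the comparison asks which liver transcripts differ under it.

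HIF-1 is a dimer of HIF-1α, which prolyl hydroxylases mark for degradation when oxygen is plentiful, and the constant partner ARNT. In low oxygen the dimer binds hypoxia response elements near genes for glucose uptake, glycolysis, angiogenesis, mitochondrial turnover and collagen modification. In hepatocytes liver isozymes such as liver pyruvate kinase carry much of the sugar flux. Some isozymes in the HIF-1 list are common in other cells of the liver and in tumours, while Pfkl is itself a liver form. Only RNA was measured here, so the amount of HIF-1α protein is not known for any sample.

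Each library held 10285776 to 17257304 counted reads. Levels are given as CPM, a gene's reads scaled to a common library size, with trimmed mean of M-values (TMM) factors, and 3 reads in a library correspond to 0.188 to 0.260 CPM, a floor that covers counting error only. PX-478 replicate 2 stood apart in having the lowest share of reads from 15 mitochondrially encoded genes, at 22.4%, and PX-478 replicate 1 had the highest, at 36.7%, against 27.1% to 32.6% in the other libraries. Hepatocyte markers were abundant in every library, with Alb between 16736 and 25849 CPM. Of the 7 hepatocyte markers 5 had lower fitted values under PX-478 (median -0.32 on the log2 scale), and Ttr, at -0.57 (unadjusted p = 0.0199 by edgeR), had all PX-478 libraries below all saline libraries. By the quasi-likelihood test of edgeR, 1 of 13693 genes passed an adjusted p of 0.05, which is 0.0073% of the genes, and that gene, Cfd, is not a HIF-1 target of the list. The count was 5 when saline replicate 4 was omitted, and also 5 on omitting PX-478 replicate 2, or its replicate 3.

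The promoters of the members were searched for the sequence that HIF-1 binds. The list is of known HIF-1 targets, so the share with this sequence is not independent of the choice of genes. A hypoxia response element has the core ACGTG or GCGTG, and both were searched on both strands in RefSeq promoter windows of the GRCm38.p6 build that run from 250 bases before to 50 bases after a gene's start. Windows were found for 32 of the 34 genes. ACGTG was present in a window of 23 of the 32 genes (71.9%), against 28.7% of the 10520 tested genes with a window and 21.8% of all 27025 genes in the table of promoters. GCGTG was present in 68.8% of the members and 54.0% of the tested genes. A gene can have several windows, with 47 for the 32 members and 13425 for the 10520 tested genes. Counted by window, ACGTG was present in 55.3% for the members and 24.7% for the tested genes. GCGTG was present in 55.3% and 48.4% of these windows. ACGTG is also part of the E-box CACGTG, which 12.5% of the members and 11.5% of the tested genes held. Among the members, 64.3% of the 14 glycolytic enzymes and 77.8% of the 18 other targets had ACGTG. A match to 5 bases is a description of the sequence and does not show a bound site. The 160 bases before the start are shown for 6 members on which the results turn, with each core on either strand in capitals, written 5′ to 3′ on the gene's strand. The first is Ldha at chr7:46845644-46845803 (plus strand), then Pgk1 at chrX:106186940-106187099 (plus), Bnip3 at chr7:138909507-138909666 (minus), Pdk1 at chr2:71873064-71873223 (plus), Slc2a1 at chr4:119108585-119108744 (plus) and Pfkl at chr10:78009808-78009967 (minus).
Ldha: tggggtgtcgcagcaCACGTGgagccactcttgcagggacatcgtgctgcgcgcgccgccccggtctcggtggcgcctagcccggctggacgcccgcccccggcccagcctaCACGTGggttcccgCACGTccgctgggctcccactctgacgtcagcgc
Pgk1: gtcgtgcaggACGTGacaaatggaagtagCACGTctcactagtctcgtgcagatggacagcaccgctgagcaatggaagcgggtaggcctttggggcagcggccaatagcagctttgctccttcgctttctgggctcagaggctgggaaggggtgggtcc
Bnip3: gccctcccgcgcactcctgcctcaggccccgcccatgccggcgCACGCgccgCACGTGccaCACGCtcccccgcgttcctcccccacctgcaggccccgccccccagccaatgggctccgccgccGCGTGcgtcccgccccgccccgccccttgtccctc
Pdk1: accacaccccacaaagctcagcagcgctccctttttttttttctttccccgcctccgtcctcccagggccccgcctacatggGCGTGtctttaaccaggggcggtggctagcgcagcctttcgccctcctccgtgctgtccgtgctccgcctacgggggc
Slc2a1: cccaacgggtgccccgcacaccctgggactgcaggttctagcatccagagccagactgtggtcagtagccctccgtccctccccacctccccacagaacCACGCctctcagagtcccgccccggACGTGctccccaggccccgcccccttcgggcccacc
Pfkl: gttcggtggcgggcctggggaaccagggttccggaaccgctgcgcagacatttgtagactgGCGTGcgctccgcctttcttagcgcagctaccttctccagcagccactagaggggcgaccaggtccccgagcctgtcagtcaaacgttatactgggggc
The cores of Ldha begin 145, 48 and 34 bases before the start, and those of Pgk1 150 and 131 bases before it. Pdk1 and Pfkl hold 1 core each in this stretch, of the form GCGTG, and Bnip3 has 4 separate capital blocks.

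Fitted values of the HIF-1 targets lay evenly on both sides of no difference. Of the 34 members, 17 had a higher and 17 a lower fitted value than in saline livers, and their median log2 fold change was 0.0087, against -0.0035 over all 13693 genes tested, of which 49.7% were higher. No member passed the threshold of 0.05 on the adjusted p, of which the smallest by edgeR was 0.409, for Pdk1. At an unadjusted p under 0.05 stood 2 of 34 members (5.88%), Pdk1 and Pfkl, both higher, against 6.97% of all genes (3.48% higher and 3.48% lower). That count was 1 without saline replicate 1 (6.05% of all genes) and 1 without PX-478 replicate 1 (3.94%), and it was 4 without saline replicate 4 (6.65% of all genes, with 0.0373% past the adjusted threshold). DESeq2 put 2 members there (7.72% of all genes, 0.606% past the adjusted threshold) and limma-voom 4 (7.77%). Without PX-478 replicate 2 there were 3 (8.5%, and 0.0358% past the adjusted threshold), and without both saline replicate 3 and PX-478 replicate 2 there were 4 (8.77%, and 0.108%). In 3 members, Pdk1, Pfkl and Bnip3, all PX-478 libraries lay above all saline libraries (8.82%, against 4.3% of all genes), and no member had all PX-478 libraries below all saline libraries (4.29% of all genes). The 95% interval of the log2 fold change lay above -1, and so excluded a fall to a 2-fold lower level, for 24 of the 34 members, and it lay within 2-fold in both directions for 18. The widest interval belonged to Aldoc, and 7 members averaged under 3 CPM in saline livers. The sign of no member changed under another scaling.

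**Figure D1:**
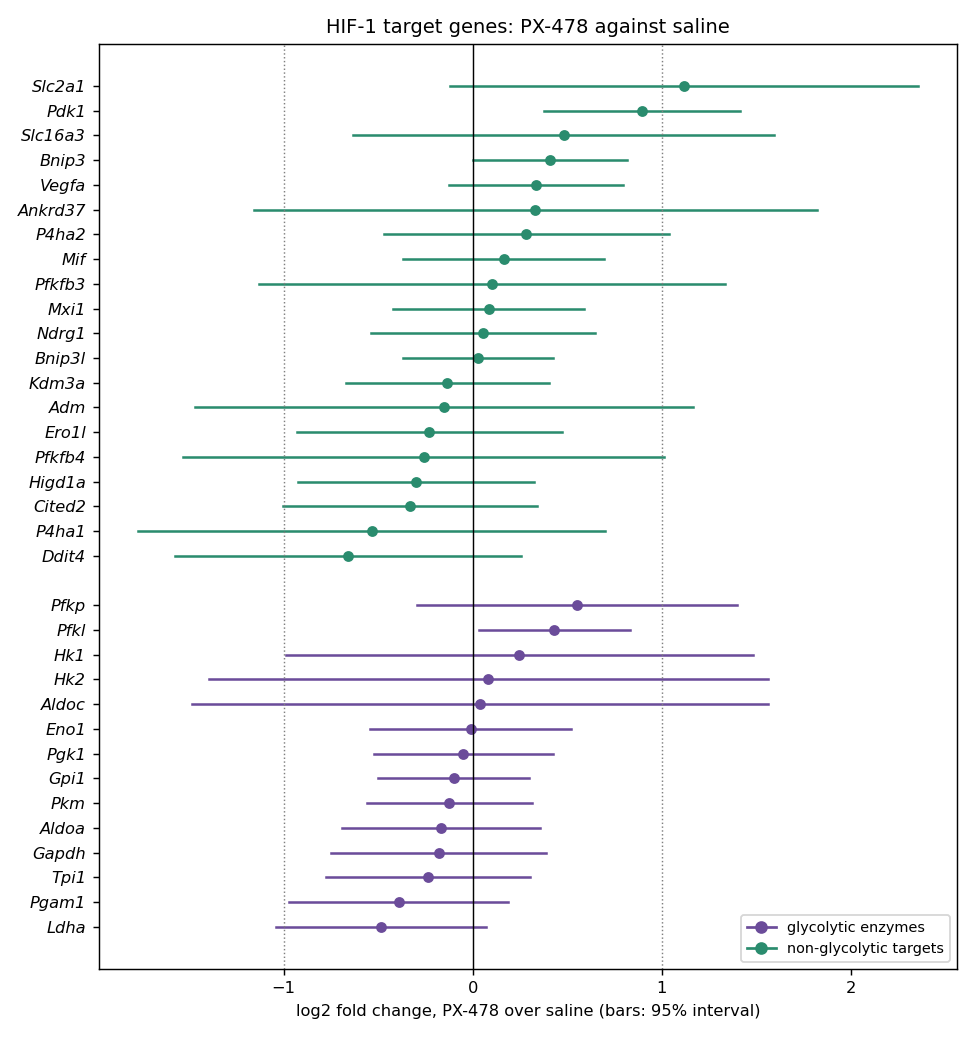
Log2 fold change (PX-478 relative to saline) for the 34 HIF-1 targets, with bars for the 95% interval, glycolytic enzymes in purple and other targets in green; dotted lines mark 2-fold. Only the intervals of Pdk1 and Pfkl exclude 0, and 18 intervals lie within the dotted lines.

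**Figure D2:**
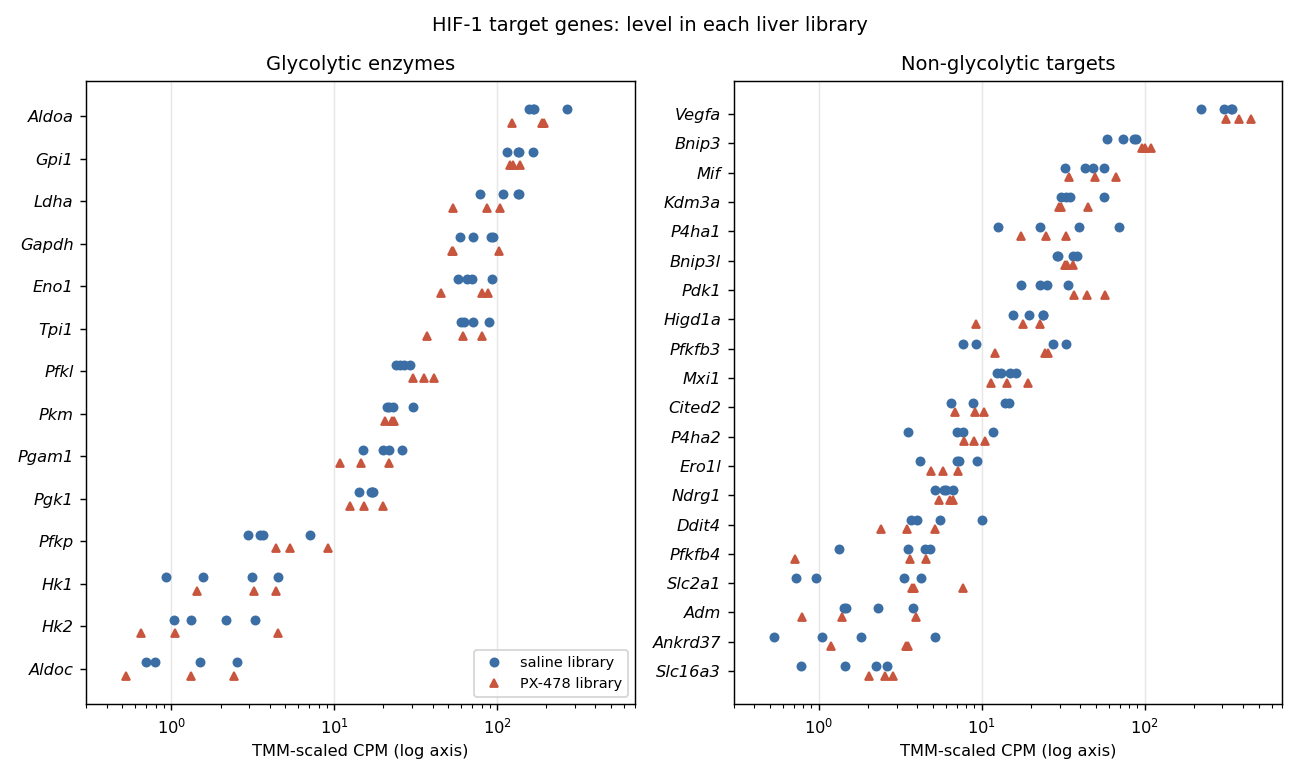
TMM-scaled CPM (log axis) of each HIF-1 target in each of 4 saline libraries (blue circles) and 3 PX-478 libraries (red triangles), ordered by the saline mean. The groups overlap for all genes but Pdk1, Pfkl and Bnip3.

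Genes that bring sugar into the pathway or steer its products held the largest single values. Pdk1 encodes pyruvate dehydrogenase kinase 1, which limits the entry of pyruvate into the citric acid cycle, and lies on chromosome 2 from 71873224 to 71903858 in GRCm38, the build of mm10. Its level was 25.3, 33.8, 17.4 and 22.7 CPM in the saline libraries and 57.4, 36.6 and 44.2 CPM in the PX-478 libraries. The lowest PX-478 library lay just above the highest saline library. The difference, 0.90 on the log2 scale (SE 0.24), had a 95% interval of 0.38 to 1.42 and an adjusted p of 0.409 by edgeR, and it ran from 0.71 to 1.08 when single libraries were left out. Slc2a1 encodes the glucose transporter GLUT1, which hepatocytes make little of. It stood at 3.32, 0.954, 0.727 and 4.26 CPM in saline livers versus 7.66, 3.86 and 3.72 CPM under PX-478. The saline libraries alone spanned 5.86-fold, and 2 of the 3 PX-478 libraries fell inside their range. Its log2 fold change, 1.12 (SE 0.57, adjusted p = 0.736), was the largest among the members in the fit and rested on 11 to 110 reads per library. Summed markers of endothelial cells, which carry GLUT1, ran from 99.7 to 149 CPM in saline and from 143 to 170 CPM under PX-478, and their part in the Slc2a1 difference was not tested. The list did not move as one: 4 of its 6 genes had higher fitted values, Stab2 held the largest level, and Pecam1 was lower, at 12.7 to 16.9 CPM in saline and 9.66 to 10.3 CPM under PX-478.

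The other genes of this role did not separate the groups. Slc16a3, the lactate exporter MCT4, stayed under 3 CPM in all libraries, with a log2 fold change of 0.48 (SE 0.51). Pfkfb3 and Pfkfb4 encode bifunctional enzymes that set the level of fructose 2,6-bisphosphate, the activator of phosphofructokinase. Pfkfb3 ranged from 7.62 to 32.7 CPM among saline libraries and from 12.1 to 25.6 CPM under PX-478, so that saline livers alone differed 4.29-fold. Pfkfb4 had a log2 fold change of -0.26 (SE 0.59), with its highest value in saline replicate 1 and its lowest in PX-478 replicate 3.

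Of the 14 glycolytic enzymes, 5 had higher and 9 lower values under PX-478; their median on the log2 scale was -0.08, with an interquartile range of -0.18 to 0.07. Pfkl, the liver form of phosphofructokinase and the committed step of the pathway, was the member with the least spread between saline libraries among those that did not overlap. It stood at 23.8, 25.3, 26.8 and 29.1 CPM in saline livers versus 40.8, 30.3 and 35.2 CPM under PX-478. On the log2 scale PX-478 livers were 0.43 higher (SE 0.18), with a 95% interval of 0.03 to 0.83 and an adjusted p of 0.687 by edgeR. Pfkp, the platelet form, was at 2.93, 7.11, 3.64 and 3.51 CPM in saline livers versus 4.39, 9.08 and 5.35 CPM under PX-478. All PX-478 values but the highest fell within the saline range, whose upper end was saline replicate 2. The log2 difference of 0.55 was 0.90 without saline replicate 2 and 0.18 without PX-478 replicate 2.

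Ldha, which turns pyruvate into lactate, had the lowest fold change of the enzymes. Its levels were 133, 78.0, 136 and 108 CPM in saline livers versus 53.5, 104 and 86.3 CPM under PX-478. Saline replicate 2 lay under 2 of the 3 PX-478 libraries, for a fitted log2 difference of -0.48 (SE 0.26; 95% interval -1.04 to 0.07). Pgam1, phosphoglycerate mutase, gave 25.9, 15.005, 21.5 and 19.9 CPM in saline livers versus 10.9, 14.5 and 21.7 CPM under PX-478, a log2 fold change of -0.39 (SE 0.27). Pgk1, phosphoglycerate kinase, is among the most used reporters of HIF-1 activity. It stood at 17.3, 14.2, 16.7 and 17.0 CPM in saline livers versus 12.4, 19.8 and 15.1 CPM under PX-478. The PX-478 libraries lay on both sides of the narrow saline range, and the 95% interval of the log2 fold change was -0.52 to 0.43.

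The hexokinases of the list were near the lower end of what was measured. Hk2, the hexokinase most often cited as a HIF-1 target, was at 2.15, 1.04, 1.32 and 3.26 CPM in saline livers versus 1.04, 4.54 and 0.653 CPM under PX-478. The highest and the lowest of the 7 values were both PX-478 libraries, so no direction can be read, and the log2 fold change of 0.08 became -1.19 without PX-478 replicate 2. Hk1 and Aldoc, the brain form of aldolase, averaged 2.53 and 1.38 CPM in saline, with SE of 0.57 and 0.70 on the log2 fold change. The remaining enzymes, Gpi1, Aldoa, Tpi1, Gapdh, Eno1 and Pkm, averaged 24.0 to 189 CPM in saline and had log2 fold changes between -0.24 (Tpi1) and -0.01 (Eno1). Several enzymes have processed pseudogenes, copies of the spliced transcript elsewhere in the genome, and the sources used here do not say how the counting divided shared reads. Copies of at least 90% identity over 300 bases numbered 181 for Gapdh, 17 for Ldha, 9 for Pkm and 7 for Eno1, so these counts are uncertain.

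PX-478 replicate 1 differed from the other libraries across the enzymes. It had the lowest of the 7 values for 7 of the 14 enzymes, namely Ldha, Pgam1, Tpi1, Gapdh, Eno1, Aldoa and Pgk1, and for 1 of the 20 other targets, Higd1a. Over all genes tested the same library was lowest for 16.5%. It was also the highest of the 7 for 1 enzyme, Pfkl, and for 4 other targets, Pdk1, Slc2a1, Slc16a3 and Vegfa. Over all genes tested it was highest for 15.6%. The mean log2 CPM of the 14 enzymes was 4.12 in that library and between 4.34 and 4.58 in the other 6. Without that library the log2 difference was -0.25 for Ldha, -0.18 for Pgam1, -0.0091 for Higd1a, 0.70 for Slc2a1 and 0.20 for Vegfa. Its share of mitochondrially encoded reads was the highest, as given above, and the part of that share in these values was not tested. The members' fold changes kept their signs when those genes were left out of the counts. The sign of a group difference does not tell why 1 library differed.

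**Figure D3:**
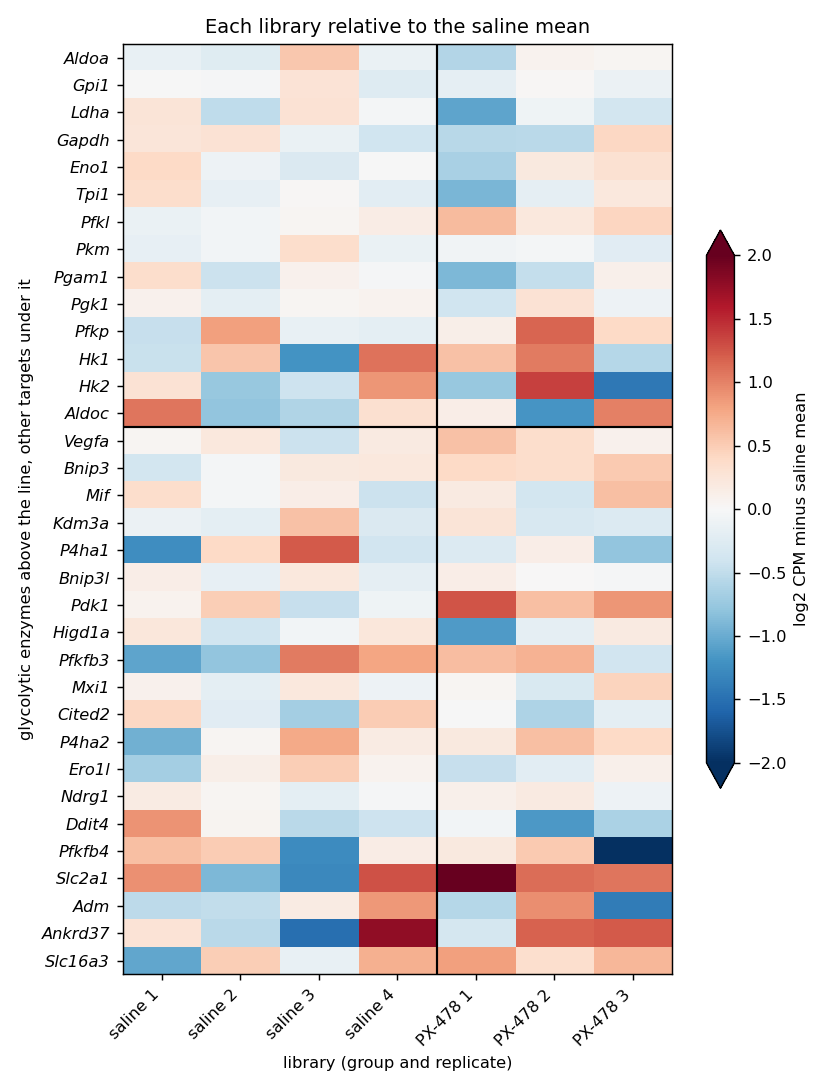
Log2 CPM of each HIF-1 target in each library minus the mean over the 4 saline libraries, with glycolytic enzymes above the horizontal line and other targets under it. PX-478 replicate 1 is blue for Ldha, Tpi1, Pgam1 and Higd1a and red for Pdk1, Slc2a1 and Pfkl, while the other PX-478 libraries are mixed.

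The glycolytic enzymes and the other targets were then compared as classes, as a description without a test. Of the 20 other targets, 12 had higher and 8 lower values under PX-478; their median on the log2 scale was 0.07, with an interquartile range of -0.24 to 0.33. The median of the enzymes was 0.15 lower than that of the other targets (difference -0.15). Without PX-478 replicate 1 the difference was 0.0048, and it was 0.11 without 9 members picked by name for their processed pseudogenes (Gapdh, Pgk1, Tpi1, Ldha, Pkm, Eno1, Pgam1, Aldoa and Mif). Without all 14 members that have a copy by the alignment rule above, Bnip3 among them, it was 0.19, over 5 enzymes and 15 other targets. Within a library, the mean log2 CPM of the enzymes exceeded that of the other targets by 1.09, 0.85, 0.87 and 0.72 in saline and by 0.36, 0.83 and 0.88 in PX-478. The absolute size of this gap depends on transcript lengths, so only its variation between libraries is of use. Apart from PX-478 replicate 1, the PX-478 libraries fell within the saline range.

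**Figure D4:**
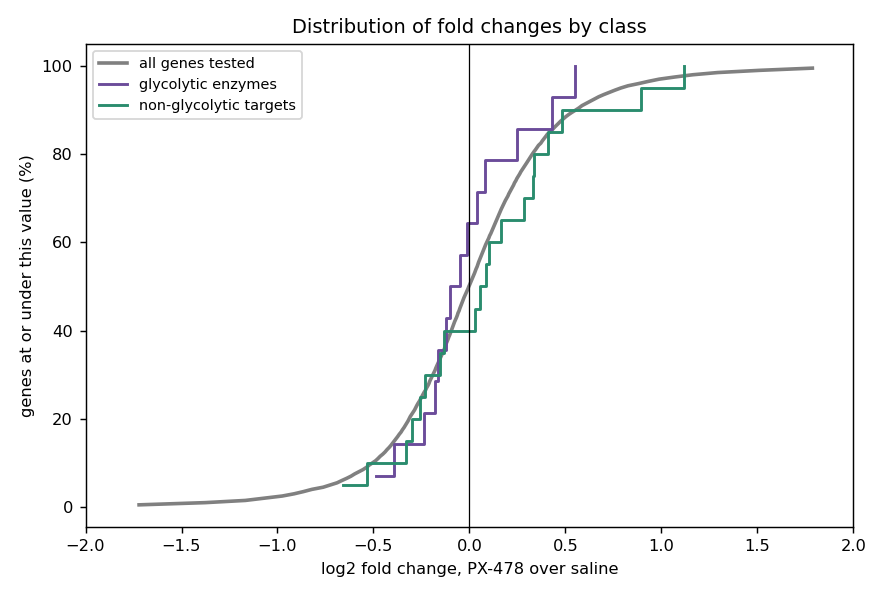
Cumulative share of genes (%) at or under a given log2 fold change (PX-478 relative to saline), for 14 glycolytic enzymes (purple), 20 other targets (green) and all 13693 genes tested (grey). The class medians, -0.08 and 0.07, lie on either side of the median of all genes.

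Among the secreted signals, Vegfa, the main angiogenic factor, was the most abundant member by CPM. It stood at 304, 344, 221 and 337 CPM in saline livers versus 447, 378 and 315 CPM under PX-478. PX-478 replicate 3 lay within the saline range and the other 2 above it, for a fitted log2 difference of 0.33 (SE 0.21; 95% interval -0.13 to 0.79). Adm encodes adrenomedullin, a vasodilator peptide. Its values were 1.43, 1.47, 2.31 and 3.76 CPM in saline livers versus 1.39, 3.93 and 0.783 CPM under PX-478, with both extremes in PX-478. Mif, a cytokine also named as a HIF-1 target, differed by 0.16 (SE 0.25) on the log2 scale, and 5 processed pseudogenes make its count uncertain.

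Of the mitochondrial targets, only Bnip3 separated the groups. Bnip3 encodes a receptor that marks mitochondria for removal by autophagy. It was at 58.4, 73.7, 86.3 and 87.8 CPM in saline livers versus 99.9, 96.1 and 109 CPM under PX-478. All PX-478 libraries were above all saline libraries, and the log2 difference of 0.41 (SE 0.19) had an adjusted p of 0.717 by edgeR. Bnip3 has 3 processed pseudogenes by the same rule, and of its exonic bases 22.3% are also exonic in an antisense transcript, and use of strand in the counting is not stated. The same limit holds for Higd1a (22.5%) and Ankrd37 (22.7%), each with a gene on the opposite strand. Pkm shares 15.3% of its exonic bases with a transcript on the same strand, and some other members share smaller parts. Bnip3l, a relative of Bnip3 with the same function, lay between 29.1 and 38.5 CPM in all 7 libraries, with a 95% interval of -0.37 to 0.43 for the log2 fold change. Higd1a, a small protein that supports respiratory chain assembly in low oxygen, was at 23.8, 15.4, 19.4 and 23.6 CPM in saline livers versus 9.27, 17.9 and 22.9 CPM under PX-478. Only PX-478 replicate 1 was outside the saline range.

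The genes of collagen hydroxylation and secretory folding varied more between saline libraries than between the groups. P4ha1 and P4ha2 encode the catalytic subunits of collagen prolyl 4-hydroxylase, and Ero1l an oxidase that forms disulfide bonds in the endoplasmic reticulum. P4ha1 stood at 12.6, 39.4, 69.7 and 22.8 CPM in saline, a 5.51-fold span, and at 24.7, 32.8 and 17.3 CPM under PX-478. Every PX-478 library was inside the saline range, and the log2 fold change of -0.54 (SE 0.54) became 0.0022 without saline replicate 3. For P4ha2 the log2 difference was 0.28 (SE 0.35), and for Ero1l it was -0.23 (SE 0.32).

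Of the transcriptional and chromatin genes, Cited2 encodes a protein that competes with HIF-1α for its coactivator. Its values were 13.8, 8.85, 6.48 and 14.8 CPM in saline livers versus 10.3, 6.81 and 9.07 CPM under PX-478, all within the saline range. Kdm3a, a histone H3 lysine 9 demethylase, and Mxi1, an antagonist of MYC, differed by -0.13 (SE 0.25) and by 0.08 (SE 0.23) on the log2 scale. Among the stress genes, Ddit4, which restrains mTORC1, was at 10.03, 5.55, 3.70 and 4.01 CPM in saline livers versus 5.16, 2.42 and 3.46 CPM under PX-478. The groups overlapped, with a fitted log2 difference of -0.66 (SE 0.42; adjusted p = 0.792) that was -0.26 without saline replicate 1. Ndrg1, a gene strongly induced by hypoxia in many cell types, was nearly level, at 6.64, 6.07, 5.16 and 5.83 CPM in saline livers versus 6.34, 6.66 and 5.48 CPM under PX-478. Ankrd37, a nuclear ankyrin repeat protein, stood at 1.82, 1.04, 0.529 and 5.14 CPM in saline, a 9.71-fold span that held all PX-478 values, 1.18, 3.40 and 3.52 CPM.

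A list of 27 other genes of sugar metabolism sets other isozymes beside the members. Levels between genes are compared per kb of exon (union of the GENCODE M21 exons). Pklr, liver pyruvate kinase, was at 77.4 CPM per kb in saline livers, against 4.804 for Pkm. Hk2 stood at 0.325 and Hk1 at 0.297 CPM per kb, and Hk3, a hexokinase outside the HIF-1 list, at 4.52. Aldoa was at 64.9 CPM per kb against 0.424 for Aldoc. For phosphofructokinase the HIF-1 target Pfkl itself led, at 3.94 CPM per kb against 2.21 for Pfkm and 0.321 for Pfkp. Of the list, 23 genes were tested, 12 with higher and 11 with lower values, and none passed. At an unadjusted p under 0.05 by edgeR stood 1 higher and 1 lower gene of the 23, against 3.48% of all genes in each direction. The higher one was Pfkfb1, the liver form of the bifunctional enzyme, at 39.2, 56.0, 57.6 and 75.2 CPM in saline livers versus 133, 110 and 104 CPM under PX-478, a log2 difference of 1.02 (SE 0.22; adjusted p = 0.241). The lower one was Pklr, at 318, 259, 188 and 237 CPM in saline livers versus 174, 152 and 131 CPM under PX-478, a log2 difference of -0.72 (SE 0.22; adjusted p = 0.514). In both the groups did not overlap.

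**Figure D5:**
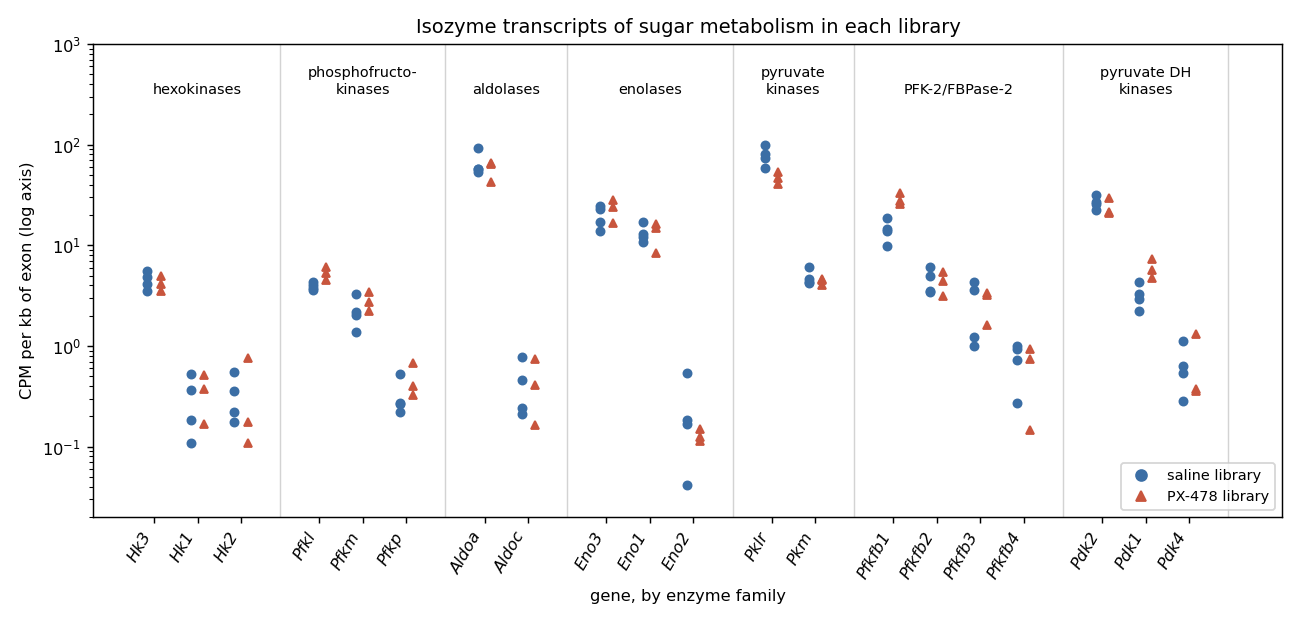
CPM per kb of exon (log axis) of isozyme transcripts in 7 enzyme families, in each saline (blue circles) and PX-478 (red triangles) library. Pklr stands above Pkm and Hk3 above Hk1 and Hk2, and the groups separate for Pfkfb1, Pklr, Pfkl and Pdk1.

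A further list held 36 HIF targets of other roles. Of the 31 that were tested, 14 had higher and 17 had lower values (median -0.02 on the log2 scale), and none passed. An unadjusted p under 0.05 by edgeR was reached by 3 higher and 2 lower genes of the 31, against 3.48% of all genes in each direction. This list was written with earlier results of these data known. The smallest p belonged to Insig2, which retains SREBP in the endoplasmic reticulum, at 128, 62.8, 43.9 and 55.8 CPM in saline livers versus 24.5, 26.3 and 17.2 CPM under PX-478, a log2 difference of -1.68 (SE 0.35; adjusted p = 0.264). Insig2 was followed by Zfp395 at 0.97 (SE 0.29) and Nampt, an enzyme of NAD synthesis, at 0.86 (SE 0.27). Of the 9 genes of the HIF pathway itself 8 were tested, 4 higher and 4 lower, none at an unadjusted p under 0.05. The 3 with the smallest p were Arnt, at a log2 fold change of 0.45 (SE 0.23), Egln2, an oxygen-sensing prolyl hydroxylase, at 0.30 (SE 0.20), and Epas1, which encodes HIF-2α, at 0.21 (SE 0.23). Hif1a, the gene of the drug's target, was at 12.7 ± 1.05 CPM (SD, n = 4) in saline livers and at 12.2 ± 1.12 CPM (SD, n = 3) under PX-478.

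Markers of other cells differed between the groups to some extent. All 9 macrophage markers had lower fitted values in PX-478, whereas 49.7% of all genes tested had higher ones. Of the 9, 4 were lower at an unadjusted p under 0.05 by edgeR, against 3.48% of all genes. The summed level of the 9 ran from 194 to 411 CPM in saline and from 183 to 267 CPM under PX-478. Macrophages express Pkm, Aldoa, Hk1 and Hk2 (background), whose log2 fold changes were -0.12, -0.17, 0.25 and 0.08, and the part of these cells in them was not tested. In whole liver, fewer cells of a type and less RNA per cell cannot be told apart. Of the 6 adipocyte markers, 2 were found by symbol in the deposited count table, and they went opposite ways. The symbols Adipoq, Plin1, Lep and Retn were not found there. Cfd ran from 13.3 to 40.4 CPM in saline and from 0.261 to 0.756 CPM under PX-478, and Cidec overlapped between the groups, with its highest value, 13.99 CPM, in PX-478 replicate 2.

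In the authors' deposited table of PX-478 over saline, 8 of the 34 members had an unadjusted p under 0.05 (23.5%), against 25.9% of all 14889 genes. They were Pdk1, Pfkl, Bnip3, Slc2a1, Vegfa and Pfkp, with higher values, and Ldha and Ddit4, with lower values. In the authors' deposited table the p of Pdk1 was 5.45e-05, against 0.00260 in the fit over 7 libraries. The log2 fold changes of the authors' deposited table differed from those of that fit by at most 0.018. A fit of all 14 count columns as if they were separate libraries put 26.1% of all genes at an unadjusted p under 0.05 and called 3 members at an adjusted p of 0.05, Pdk1, Pfkl and Bnip3, with 9.97% of all genes called.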

How the data were processed

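RNA of 7 mouse liver samples was sequenced. The authors deposited whole-number read counts per gene, not normalized. Per the submitters' processing notes, featureCounts, edgeR and build mm10 were used; no aligner is given in the sources used here. The authors also deposited for each gene a log2 fold change (PX-478 relative to saline) and an unadjusted p-value, per the file headers. Every gene of the table exceeded 0.5 CPM in 2 or more count columns. The 7 columns that hold a sample's average were left out.

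Each sample has 2 count columns. Within a sample the pair gave a chi-square of 0.291 to 0.765 per gene, below sampling noise, whereas libraries of the same group gave 49.1 to 144.9. Each pair was therefore averaged, rounded and treated as 1 sample. The labels do not say that each sample is a separate mouse, and p-values therefore reflect only the variation among these 7 libraries, which may be technical.

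Genes passing filterByExpr (13693) were tested with edgeR 4.0.16 (R 4.3.3) by the quasi-likelihood F test with robust dispersions and TMM scaling, without covariates. The Benjamini-Hochberg adjustment covered every tested gene, and the threshold was 0.05. SE was obtained by dividing the log2 fold change by the root of F. All 34 members passed the filter. Mean log2 CPM uses a prior count of 2. The script was tested on simulated data. Alternatives were DESeq2 1.42.0, limma-voom (limma 3.58.1), other scalings and filters, a replicate block, single columns or their sum, and left-out libraries. The fit of all 14 columns and the omission of all members with a pseudogene copy were chosen after seeing the data.

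The members and gene lists were chosen with earlier results of these data known. Values in every library are given for the 12 members with the smallest p and for Vegfa, Slc2a1, Pdk1, Ldha, Pgk1, Hk2, Bnip3, Adm, Ankrd37 and Ndrg1. From each other list the 3 genes with the smallest p are named, with isozymes set beside a member; some results are not reported here. Promoter sequences are from RefSeq (GRCm38.p6), and positions, exon lengths and pseudogene transcripts from GENCODE M21.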

Additional observations from a re-analysis of the deposited data

Results flagged for a closer look

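For 3 of the 34 members, 1 of the 4 saline libraries lay far from the other 3, with a gap to its nearest neighbour that, as a share of the saline range, exceeded Dixon's critical value for 4 samples. Chance gives about 1 such group in 20. Pfkp stood at 7.11 CPM in saline replicate 2, against 2.93 to 3.64 CPM in the other saline libraries. Aldoa stood at 267 CPM in saline replicate 3, against 155 to 168 CPM. Kdm3a stood at 56.4 CPM in saline replicate 3, against 30.5 to 34.6 CPM. Without saline replicate 3 the log2 fold change was 0.046 for Aldoa and 0.11 for Kdm3a, against -0.17 and -0.13 with all libraries. That of Pfkp, 0.55 with all libraries, ran from 0.18 to 0.90 as single libraries were left out.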

How the results depend on the processing

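No member passed an adjusted p of 0.05 in any alternative but the fit of all 14 columns, which was chosen after seeing the data. Over all genes, DESeq2 called 83, limma-voom 0, the fit with the replicate number as a block 3, and the fit without saline 3 and PX-478 2 together 15. With all 14 columns as libraries 1360 genes and 3 members were called, and 7 members had an unadjusted p under 0.05. That last count was 4 with limma-voom and 4 without saline 3 and PX-478 2 together. Leaving out single libraries gave 1 to 5 genes called, 1 to 4 members at an unadjusted p under 0.05, and class differences from -0.25 to 0.0048. Without the 9 members set aside for pseudogenes the class difference was 0.11, and without all 14 that have a copy, an alternative also chosen after seeing the data, it was 0.19, with fewer genes in each class. Same-numbered libraries gave no sign of pairing: their deviations from the group means correlated at -0.021, -0.074 and -0.0017 over genes. This check cannot exclude a pairing of the samples. None of the libraries compared, replicates 1 to 3 of each group, correlated best with its own number.

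Of the 34 members, 16 kept their sign in all 20 alternatives. Other signs turned in Aldoc (-0.014) and Hk2 (-0.41) with limma-voom, in Bnip3l (-0.024), Hk2 (-0.0073) and Mif (-0.0073) with the block, and in Eno1 (0.0040) with the second column alone. Without saline 3 and PX-478 2 together they turned in Ankrd37 (-0.19), Hk1 (-0.41), Hk2 (-1.34), Kdm3a (0.21) and Ndrg1 (-0.063). With single libraries left out, log2 fold changes ran from -1.05 to 0.24 for Adm, -0.28 to 0.046 for Aldoa, -0.58 to 0.51 for Aldoc, -0.032 to 0.10 for Bnip3l, -0.19 to 0.24 for Eno1, -0.13 to 0.69 for Hk1, -1.19 to 0.51 for Hk2, -0.35 to 0.11 for Kdm3a and -0.099 to 0.38 for Mif. They ran from -0.14 to 0.25 for Mxi1, -0.0064 to 0.13 for Ndrg1, -0.82 to 0.0022 for P4ha1, -0.16 to 0.48 for Pfkfb3, -0.70 to 0.21 for Pfkfb4, -0.25 to 0.10 for Pgk1, -0.18 to 0.011 for Pkm and -0.51 to 0.015 for Tpi1. The cause was not tested.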

Other observations

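Among the saline livers, 4 members had their lowest of all 7 values in saline replicate 1 and their highest in saline replicate 3, namely P4ha1, P4ha2, Ero1l and Pfkfb3 (11.8% of the members, against 3.39% of all genes tested). P4ha2 stood at 3.52 CPM in saline replicate 1 and at 11.6 CPM in saline replicate 3, and Ero1l at 4.17 and 9.39 CPM. Pfkfb3 stood at 7.62 and 32.7 CPM. The pattern was noticed after the values were seen, and these genes have different functions in collagen hydroxylation, protein folding and the control of glycolysis.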
